A study of Mus musculus with 5 samples.

Results

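The 41 genes described here repair DNA double-strand breaks and DNA interstrand crosslinks. They were found by gene name, a rule that uses no measured value, and all 41 are among the 23997 gene names of the expression table. They comprise 17 genes of homologous recombination, 10 genes of the Fanconi anemia pathway, 7 genes of nonhomologous end joining and 7 genes of break signaling. Total RNA, depleted of ribosomal RNA, was sequenced from the entire cortex of C57BL/6 mouse embryos at embryonic day 16. The question was how the transcriptome changes without Uhrf1, a protein that helps the maintenance methyltransferase Dnmt1 copy methylation at CG dinucleotides onto newly replicated DNA. The conditional knockout (cKO) group has 2 libraries, MG18 and MG19 (numbered here as replicates 1 and 2), labelled Uhrf1 -/-, from embryos with Emx1-Cre and floxed Uhrf1 on both chromosomes. The control group has 3 libraries, MG15, MG16 and MG17 (numbered here as replicates 1, 2 and 3), labelled Uhrf1 +/-, from embryos that also carry Emx1-Cre and are heterozygous for the floxed allele, so no group has both Uhrf1 copies intact. Emx1-Cre acts in progenitors of the dorsal telencephalon, so interneurons that migrate in from the ventral telencephalon, microglia and vessels keep Uhrf1 in the cKO cortex. The study calls the libraries biological replicates, and p-values measure only the spread between them.

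A double-strand break can be repaired by copying the sister chromatid, which is homologous recombination and needs a replicated genome, or by direct ligation of the ends, which is nonhomologous end joining and works throughout the cell cycle. The Fanconi anemia proteins unhook crosslinks that join both DNA strands, at stalled replication forks, and hand the resulting break to homologous recombination. Break signaling starts with the kinases Atm and Atr, which phosphorylate the histone variant H2AX, and this mark recruits Mdc1, Rnf8, Rnf168 and 53BP1 (gene Trp53bp1) to the break. In the developing cortex end joining is known to be needed for the survival of newborn neurons, and recombination for that of dividing progenitors.

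Levels are given in FPKM, fragments per kilobase of transcript normalized to the number of mapped fragments, which corrects for length and depth. Differences are log2 fold changes of FPKM + 0.1, cKO minus control, fitted with limma over the 14694 genes that averaged 0.1 FPKM or more, and adjusted p-values are those of Benjamini and Hochberg over all of these genes. Uhrf1 itself was at 2.75 FPKM in MG18 and 2.61 FPKM in MG19, against 7.24, 13.2 and 13.0 FPKM in the control libraries MG15, MG16 and MG17. Its log2 fold change was -1.97 (SE 0.28, adjusted p = 0.00779 in limma). Only part of the gene is floxed, so its other exons, and cells without Cre, can still give fragments. Leaving out MG18 gave an adjusted p of 0.256 and leaving out MG19 one of 0.262, so with 1 cKO library not even the deleted gene passed the threshold of 0.05. Depth, estimated only roughly from the steps between low FPKM values, was about 8000000 and 10000000 fragments in the cKO libraries and between about 10000000 and 44000000 in the controls.

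All 41 repair genes passed the filter on low values, and none differed between cKO and control at an adjusted p under 0.05 in limma, where 1.25% of all genes did. The lowest adjusted p among them was 0.291, for Nhej1. At an unadjusted p under 0.05, cKO levels of 3 of the 41 were lower (7.32%, beside 5.17% of all genes, a similar share) and 0 were higher (beside 6.36% of all genes). With a change of more than 2-fold required as well, which are the thresholds the study used, 1 repair gene was lower (2.44%, beside 1.16% of all genes) and 0 were higher (beside 2.87%). The study set them on p-values from Cufflinks and not from limma, so the same thresholds need not select the same genes. For 35 of the 41 genes (85.4%, beside 70.6% of all genes) the 95% interval of the difference lay within 2-fold in either direction, so larger changes of these repair transcripts would have lain outside it.

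The small differences leaned to one side. The log2 fold change was below 0 for 31 of the 41 genes (75.6%, beside 52.2% of all genes), and its median was -0.19, beside -0.02 over all genes tested. The medians were -0.18 for homologous recombination, -0.17 for the Fanconi anemia genes, -0.21 for end joining and -0.27 for break signaling, with 12 of 17, 9 of 10, 5 of 7 and 5 of 7 genes below 0. Both cKO libraries lay below all 3 controls for 9 of the 41 genes (22.0%, beside 16.3% of all genes), and above all 3 controls for 1 gene, Mdc1 (2.44%, beside 14.5% of all genes). The size of the lean depended on single libraries, as the median was -0.10 without MG18 and -0.12 without the control MG17, but -0.25 without MG19, -0.25 without MG15 and -0.21 without MG16. Between 29 and 33 of the 41 genes were below 0 whichever library was left out. With libraries scaled to the same summed FPKM all genes shifted by 0.18, to a median of 0.16, and the repair genes shifted with them, to a median of -0.0033 with 22 of 41 genes below 0 where 29.6% of all genes were. The median of the repair genes minus that of all genes was -0.17 under that scaling and -0.17 in the reported fit. In a test of whole gene sets, the study reported DNA repair genes as underrepresented in the cKO at the same embryonic stage. The gene set of that test was not compared with the genes listed here, and the test was not repeated.

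**Figure D1:**
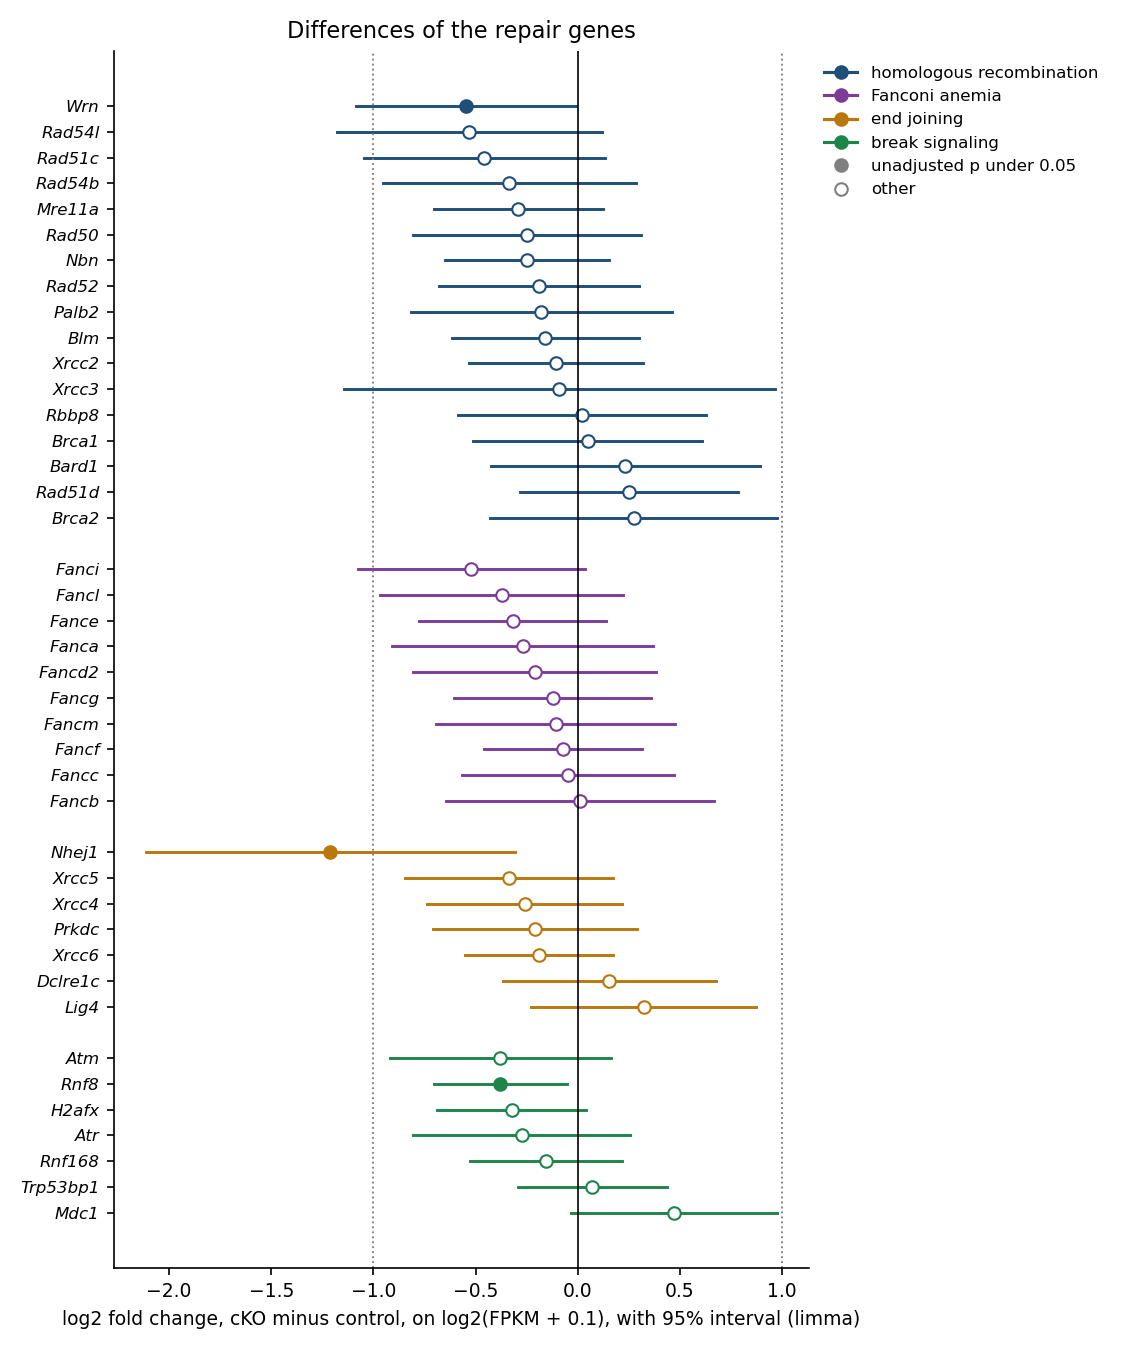
Log2 fold change of each repair gene, cKO minus control, of FPKM + 0.1, with the 95% interval from limma; genes run down the page by role group, filled points have an unadjusted p under 0.05 and dotted lines mark 2-fold. The points run from -1.21 for Nhej1 to 0.47 for Mdc1, and all intervals but those of Nhej1, Wrn and Rnf8 include 0.

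The promoters of 3 genes that the results turn on are shown with their CG dinucleotides, the sites at which Uhrf1 acts in methylation maintenance. Whether the number of these sites bears on the differences was not tested. Nhej1 (chromosome 1, positions 74967346 to 75125226) is the member with the largest difference, Rnf8 (chromosome 17, positions 29614789 to 29641664) the one with the smallest error among those at an unadjusted p under 0.05, and Mdc1 (chromosome 17, positions 35841495 to 35859670) the one with the largest difference above 0. Each sequence runs 5′ to 3′ on the gene's own strand from 250 bases before to 50 bases after the RefSeq start in GRCm38.p6, the assembly also named mm10, and capitals mark CG dinucleotides. No methylation was measured in these libraries.
Nhej1 promoter, chr1:75125177-75125476, minus strand: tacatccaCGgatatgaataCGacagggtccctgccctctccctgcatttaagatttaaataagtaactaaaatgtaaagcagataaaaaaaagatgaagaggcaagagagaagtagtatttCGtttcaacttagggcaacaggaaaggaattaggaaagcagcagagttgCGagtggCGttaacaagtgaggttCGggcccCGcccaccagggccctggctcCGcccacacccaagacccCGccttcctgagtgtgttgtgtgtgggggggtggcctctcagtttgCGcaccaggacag
Rnf8 promoter, chr17:29614539-29614838, plus strand: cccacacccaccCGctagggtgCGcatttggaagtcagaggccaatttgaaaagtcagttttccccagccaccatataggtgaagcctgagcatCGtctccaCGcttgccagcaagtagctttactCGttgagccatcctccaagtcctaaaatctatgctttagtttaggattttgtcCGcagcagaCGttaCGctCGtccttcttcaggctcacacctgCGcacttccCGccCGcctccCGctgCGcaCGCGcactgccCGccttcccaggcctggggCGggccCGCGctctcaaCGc
Mdc1 promoter, chr17:35841248-35841547, plus strand: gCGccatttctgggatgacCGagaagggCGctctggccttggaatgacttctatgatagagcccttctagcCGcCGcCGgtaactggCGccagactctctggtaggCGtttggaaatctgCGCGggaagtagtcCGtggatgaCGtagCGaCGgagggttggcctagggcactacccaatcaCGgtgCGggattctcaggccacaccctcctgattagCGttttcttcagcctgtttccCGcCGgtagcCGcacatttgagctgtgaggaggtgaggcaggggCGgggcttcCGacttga

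The Nhej1 promoter holds 10 CG dinucleotides, that of Rnf8 21 and that of Mdc1 22. Promoters of 31 of the 41 repair genes were matched by name in the RefSeq table, with 34 start sites, and their median was 23 CG dinucleotides, beside 7 over all 32851 promoters of the table and 13 over those of protein-coding genes. The count ran from 3 for Fancl, the E3 ligase of the Fanconi anemia pathway, to 32 for Blm, a helicase that resolves recombination intermediates. Most of these promoters are thus CG-rich, and Nhej1 lies in the lower part of their range. An E2F motif (TTTCCCGC, TTTGGCGC, TTTCGCGC or TTTGCCGC on either strand) is the kind bound by the factors that switch on S phase genes. It was present in 7 of the 34 promoters (20.6%), beside 2.26% of all promoters and 2.85% of those of protein-coding genes. These belong to Bard1, Brca2, Rad51c (at both of its start sites), Fancg, Xrcc6 and Mdc1, and the motif of Mdc1 starts 16 bases before its start site. The NF-Y motif CCAAT on either strand was in 55.9% of the 34, beside 37.4% of all promoters, and the CHR motif TTTGAA, found in many G2 and mitosis genes, in 5.88%, beside 17.9%. A match is only a run of letters, and binding was not measured.

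Homologous recombination starts with trimming of the break by Mre11a, Rad50 and Nbn, which form the MRN complex, together with Rbbp8 (CtIP). Nbn, the subunit that brings the complex to Atm, was the most abundant recombination gene, with 10.5 FPKM in MG18 and 9.54 FPKM in MG19, against 10.6, 11.8 and 13.4 FPKM in the controls MG15, MG16 and MG17. Both cKO values lay just under the lowest control, and the log2 fold change was -0.25 (SE 0.18, adjusted p = 0.618 in limma). The nuclease Mre11a also lay below all controls, with a log2 fold change of -0.29 (adjusted p = 0.568, SE 0.18). Rad50, the ATPase of the complex, and Rbbp8 overlapped with the controls, at log2 fold changes of -0.25 and 0.02.

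Brca2, a central mediator of strand exchange, had the highest log2 fold change of the recombination genes. Its levels were 1.94 and 3.33 FPKM in MG18 and MG19, against 1.62, 2.36 and 2.39 FPKM in the controls. The groups overlapped, with the highest value in MG19 and the other cKO library inside the control range, and the log2 fold change was 0.27 (SE 0.31, adjusted p = 0.758 in limma). It was -0.10 without MG19, so even its direction rested on 1 library. Brca1 and its partner Bard1, which form a ubiquitin ligase that favors recombination, and Palb2, which joins Brca1 to Brca2, had log2 fold changes of 0.05, 0.23 and -0.18, all with overlapping groups.

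Rad51c, Rad51d, Xrcc2 and Xrcc3, which work together in small complexes during strand exchange, differed in direction among themselves. Rad51c was below all controls, at 1.66 and 2.56 FPKM in the cKO libraries, against 2.79, 2.94 and 2.88 FPKM in the controls, with a log2 fold change of -0.46 (adjusted p = 0.535 in limma, SE 0.26). Most of that came from MG18. The log2 fold change was 0.25 for Rad51d and -0.11 for Xrcc2. Xrcc3, the least abundant of the 41 genes, had both its highest and its lowest value in the cKO, 1.43 FPKM in MG18 and 0.419 FPKM in MG19, against 0.739 to 1.11 FPKM in the controls, so that its log2 fold change of -0.09 carried an SE of 0.47. Rad52, which anneals single strands, had a log2 fold change of -0.19. The translocases Rad54l and Rad54b, which help strand invasion of the sister duplex, were at -0.53 and -0.33, with overlapping groups. Exons of Rad54b share 35.8% of their bases with Fsbp on the same strand, so fragments of the pair could not be told apart there.

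Wrn and Blm are helicases of the RecQ family that unwind recombination and fork intermediates, and the human genes are those of Werner and Bloom syndromes. Wrn (chromosome 8, positions 33234372 to 33385543) was at 2.23 and 3.06 FPKM in MG18 and MG19, against 3.58, 4.29 and 3.75 FPKM in the controls. The groups did not overlap, and the log2 fold change was -0.55 (SE 0.24, unadjusted p = 0.048, adjusted p = 0.427 in limma), the lowest of the recombination genes. Without MG18 the log2 fold change was -0.33 and the unadjusted p 0.248. The unadjusted p also exceeded 0.05 with any one of the controls left out, where the log2 fold change was -0.60 without MG15, -0.47 without MG16 and -0.57 without MG17. With equal summed FPKM the log2 fold change was -0.36 and the unadjusted p in limma 0.222. With no filter on low values that p was 0.060. Blm was at -0.16, with overlapping groups.

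**Figure D2:**
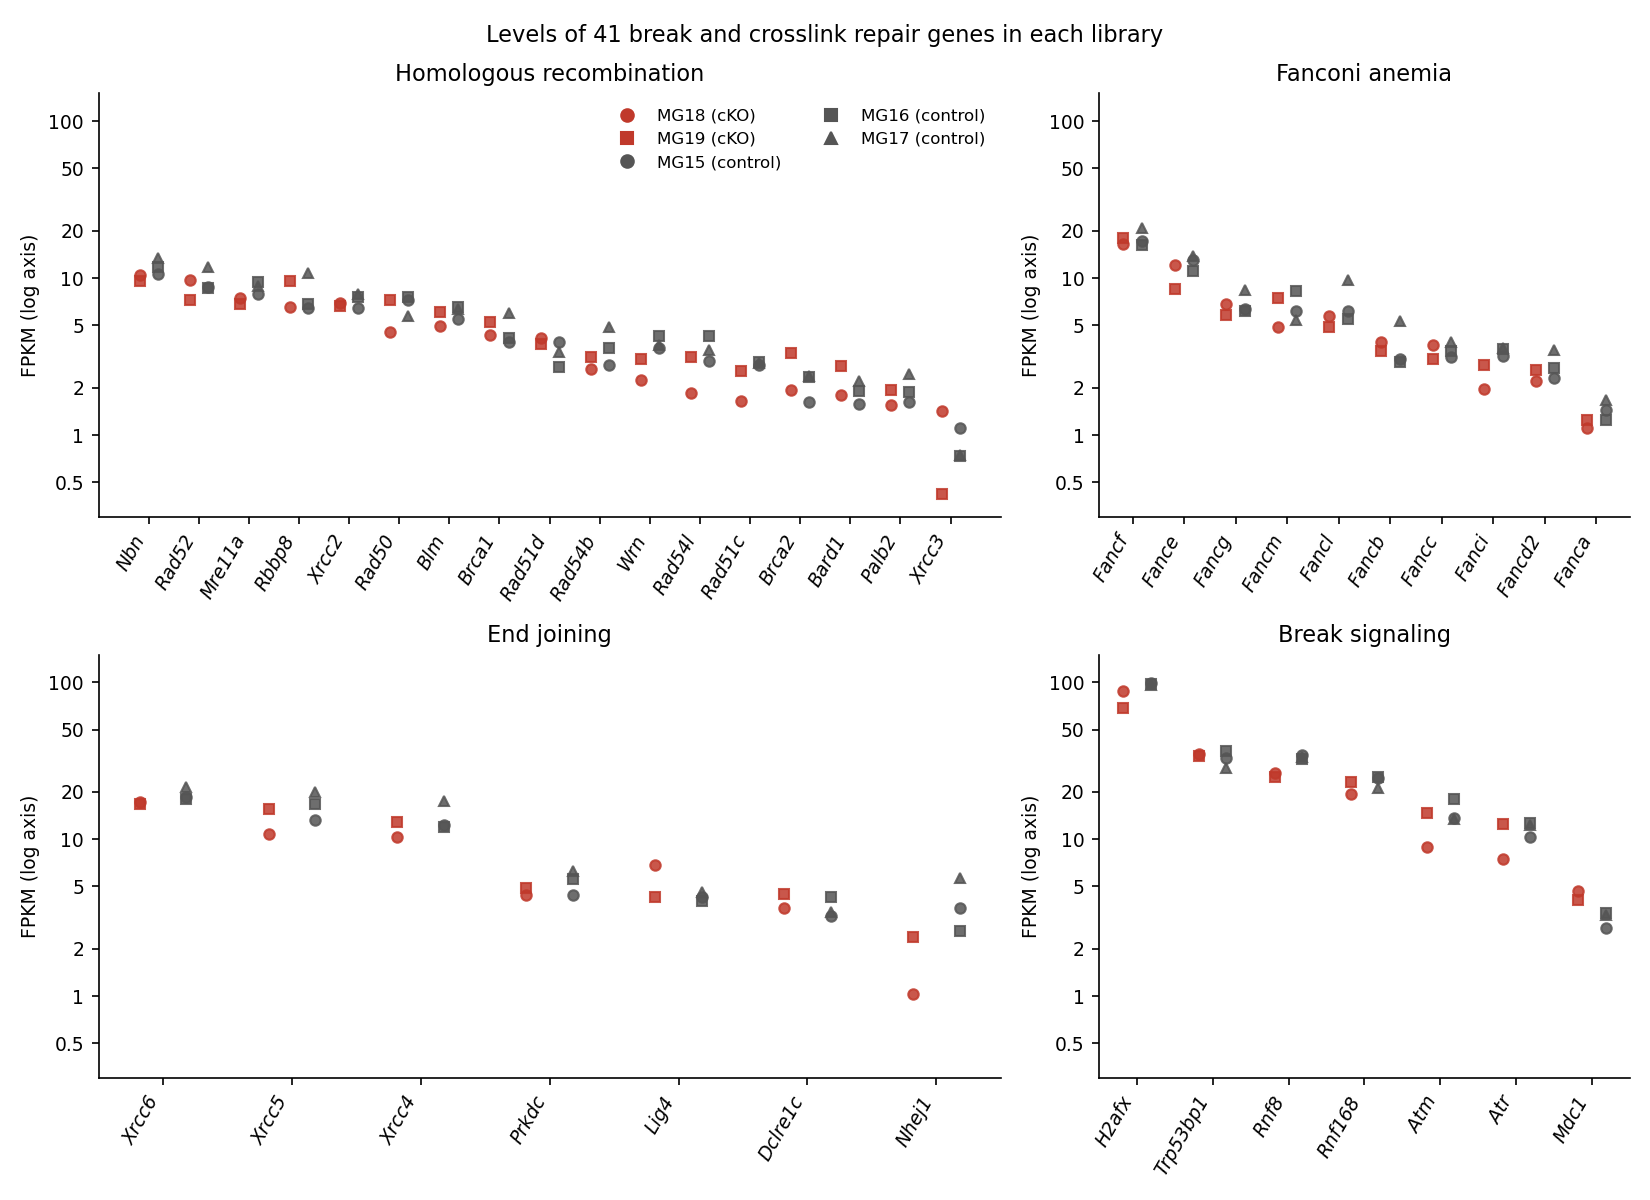
FPKM of the 41 repair genes in each library on a log axis, by role group and in order of mean level, with cKO libraries left of controls for each gene. The red cKO points lie within or just under the spread of the grey controls for most genes, and the control MG17 (triangles) is the highest of all libraries for 21 of the 41 genes.

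In the Fanconi anemia pathway, the core complex with the ligase Fancl attaches ubiquitin to the pair Fanci and Fancd2, which then direct the crosslink to be cut. No gene of the pathway passed any threshold in the reported fit. Fanci had the lowest log2 fold change, with 1.97 and 2.81 FPKM in MG18 and MG19, against 3.17, 3.52 and 3.60 FPKM in the controls. It was the only Fanconi anemia gene whose groups did not overlap, and its log2 fold change was -0.52 (SE 0.25, unadjusted p = 0.063, adjusted p = 0.458 in limma). Fanci shares 16% of its exon bases with Polg on the opposite strand, as H2afx, Fanca, Fancl, Fancf, Trp53bp1, Rad54l and Fancc share 10.2% to 16.4% with opposite genes, and whether the FPKM step used strand is not known. Its unadjusted p was under 0.05 with quantile normalization (0.031), without the trend (0.046), with a correction for transcript length (0.045) and without MG19 (0.028), while without MG18 its log2 fold change was -0.27 (0.314). The same held for Fance, a core complex subunit, without MG18 (0.046). The Fanci partner Fancd2 was at a log2 fold change of -0.21, with overlapping groups, and Fancl at -0.37.

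The subunits of the core complex differed in how far they lay from the controls. Fancf, an adaptor of the core complex and the most abundant gene of the pathway, had 16.5 and 18 FPKM in MG18 and MG19, against 17.4, 16.4 and 20.98 FPKM in the controls. The cKO values fell inside the control range, at a log2 fold change of -0.07 (adjusted p = 0.889 in limma, SE 0.17), and the 95% interval ran from -0.46 to 0.31. Fancb, an X-linked core subunit with the highest log2 fold change of the pathway, had 3.90 and 3.41 FPKM in the cKO, against 3.06, 2.90 and 5.33 FPKM in the controls, which gave 0.01 (SE 0.29, adjusted p = 0.992). The other core subunits Fanca, Fancc, Fance and Fancg and the translocase Fancm, which anchors the complex to DNA, ran from -0.32 for Fance to -0.05 for Fancc. In 9 of the 10 genes of the pathway the highest value of all libraries was that of the control MG17.

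Nonhomologous end joining begins when the Ku proteins Xrcc5 (Ku80) and Xrcc6 (Ku70) clasp the broken end, after which the kinase Prkdc and the nuclease Dclre1c (Artemis) prepare it and Lig4 seals it with Xrcc4 and Nhej1. Nhej1 encodes XLF, which bridges the ends for ligation, and it was the repair gene with the largest difference. Its levels were 1.03 and 2.37 FPKM in MG18 and MG19, against 3.65, 2.60 and 5.62 FPKM in the controls MG15, MG16 and MG17. The cKO libraries averaged 43.0% of control, with the groups just apart, since MG19 lay close under MG16. The log2 fold change was -1.21 (SE 0.40, unadjusted p = 0.014, adjusted p = 0.291 in limma). Nhej1 was the only one of the 41 genes past both of the study's thresholds when these were set on limma p-values.

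That call rested on few fragments and on single libraries. From the rough depths, the Nhej1 values stood for about 9 and 25 fragments in MG18 and MG19, against about 170, 42 and 60 in the controls. Without MG18 the log2 fold change was -0.65 and the unadjusted p 0.219, and without MG17 they were -0.93 and 0.055. With a pseudocount of 1 FPKM in place of 0.1 the log2 fold change was -0.88, under 2-fold. No other annotated gene shares exon bases with Nhej1.

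The other end joining genes had smaller log2 fold changes. Xrcc6, the most abundant of the 7 genes, had 17.2 and 16.7 FPKM in MG18 and MG19, against 18.6, 18.1 and 21.6 FPKM in the controls. Both cKO values were below all controls by a narrow margin, at a log2 fold change of -0.19 (adjusted p = 0.667 in limma, SE 0.16), and with equal summed FPKM, which shifts all genes by 0.18, it was -0.0033. Lig4, with the highest log2 fold change of the group, had 6.84 and 4.27 FPKM in the cKO, against 4.26, 4.05 and 4.60 FPKM in the controls. Only MG18 stood above the controls, so that the log2 fold change of 0.32 (SE 0.24, adjusted p = 0.632) was -0.01 without it. Xrcc5, Xrcc4 and Prkdc were at -0.34, -0.26 and -0.21 and Dclre1c at 0.16, all with overlapping groups.

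Among the break signaling genes, H2afx encodes H2AX, the histone variant that is phosphorylated around a break, and it was the most abundant of the 41 genes. It had 87.7 and 68.8 FPKM in MG18 and MG19, against 98.5, 97.4 and 95.9 FPKM in the controls. The 3 controls lay within a few FPKM of each other and both cKO values lay below them, at a log2 fold change of -0.32 (unadjusted p = 0.077, adjusted p = 0.483 in limma, SE 0.16). Without MG19 it was -0.15.

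Rnf8, the ubiquitin ligase that docks on Mdc1 and opens the ubiquitin signal at the break, had the smallest standard error of the 41 genes. It had 26.6 and 25.05 FPKM in MG18 and MG19, against 34.6, 32.5 and 33.6 FPKM in the controls. Both groups were narrow (25.8 ± 1.08 FPKM in the cKO, SD, n = 2, and 33.6 ± 1.02 FPKM in the controls, SD, n = 3), and the cKO average was 76.9% of control. The log2 fold change was -0.38 (SE 0.15, unadjusted p = 0.028, adjusted p = 0.377 in limma). With equal summed FPKM and its shift of 0.18 in all genes it was -0.19, with an unadjusted p of 0.280. The unadjusted p in limma was 0.056 with quantile normalization and 0.055 without the trend. The other alternatives on all libraries gave 0.014 (correction for transcript length) to 0.031 (filter at a mean of 1 FPKM). It was 0.089 without MG15, 0.058 without MG16 and 0.023 without MG17. Without MG18 the log2 fold change was -0.42, and without MG19 it was -0.34. Rnf8 shares 13.2% of its exon bases with Gm28043 on the same strand. Rnf168, the ligase that extends the Rnf8 signal, was at -0.16 with overlapping groups.

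Mdc1, the scaffold that reads phosphorylated H2AX and recruits Rnf8, was the only repair gene above all controls in both cKO libraries. It had 4.71 and 4.09 FPKM in MG18 and MG19, against 2.74, 3.39 and 3.31 FPKM in the controls. The cKO libraries averaged 140% of control, and the log2 fold change was 0.47 (SE 0.22, unadjusted p = 0.064, adjusted p = 0.460 in limma). Under the alternatives run, its unadjusted p was between 0.029, with equal summed FPKM, and 0.217, without MG18.

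The kinase genes differed mostly in 1 library. Atm, which responds to double-strand breaks, had 8.88 and 14.7 FPKM in MG18 and MG19, against 13.7, 17.99 and 13.4 FPKM in the controls. Only MG18 was below the controls. The log2 fold change was -0.38 (SE 0.24, adjusted p = 0.569 in limma), and it was -0.02 without MG18. Atr, which responds to single-stranded DNA at stalled forks, had 7.46 and 12.5 FPKM in the cKO, against 10.3, 12.6 and 12.4 FPKM in the controls, at a log2 fold change of -0.27 (SE 0.24) with MG18 again the low library. Trp53bp1, which shields ends from trimming and so favors end joining, had 34.7 and 33.7 FPKM in the cKO, against 33.1, 36.6 and 28.6 FPKM in the controls, at a log2 fold change of 0.07 (SE 0.16).

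**Figure D3:**
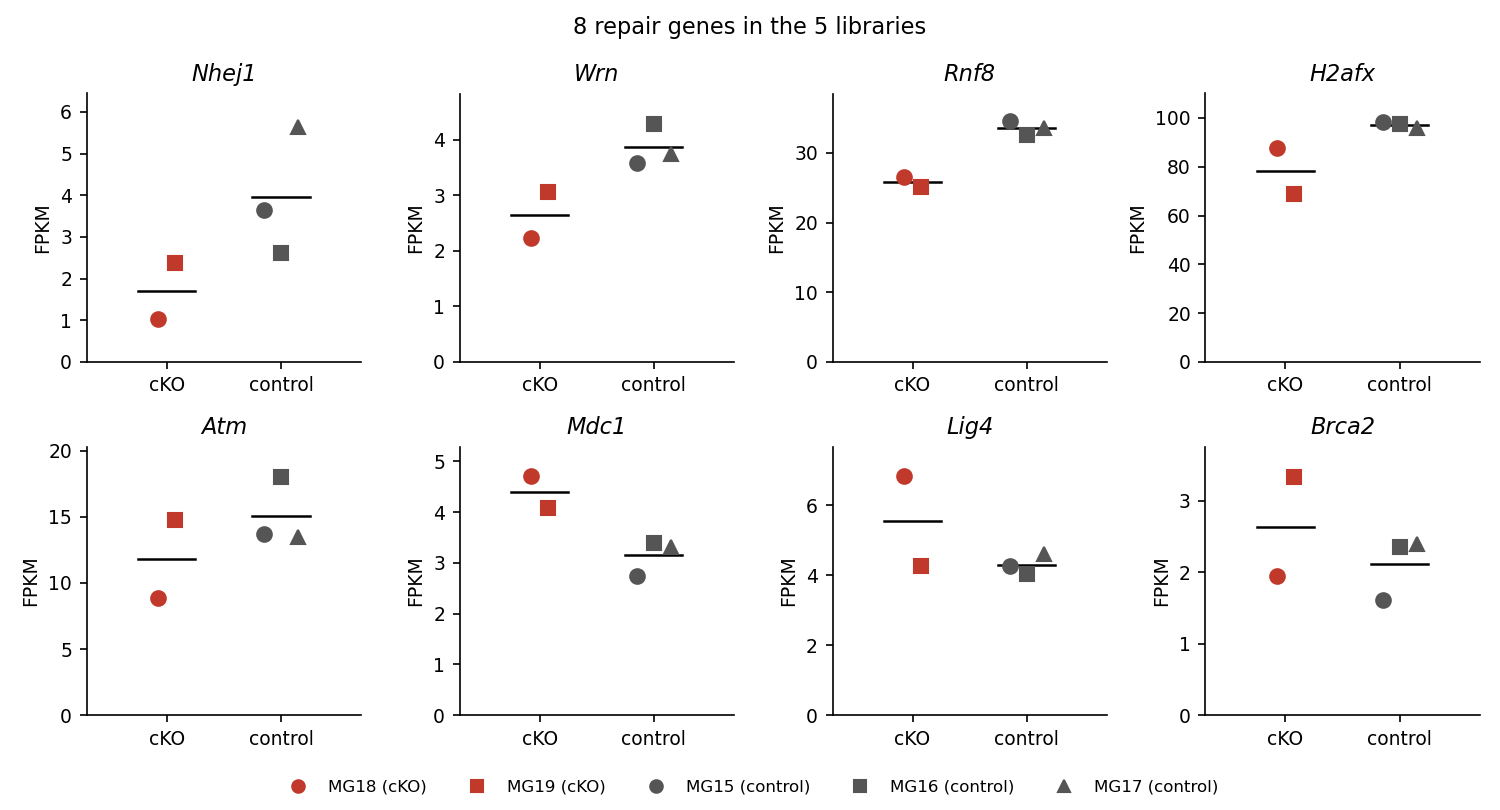
FPKM of 8 repair genes in each library, with cKO left of control in each panel; bars are group means and every axis starts at 0. The groups are apart for Nhej1, Wrn, Rnf8, H2afx and Mdc1, and for Atm, Lig4 and Brca2 a single cKO library sets the difference of the means.

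The libraries of each group did not share 1 level for the repair genes. The median log2 difference of the 41 genes from the control mean was -0.25 in MG18 and -0.10 in MG19, against -0.14 in MG15, -0.01 in MG16 and 0.13 in MG17. The control MG15 thus lay below the cKO library MG19. MG18 was the lowest of all 5 libraries for 17 of the 41 genes and MG17 the highest for 21, and the medians over all genes were within 0.03 of 0 in every library. Genes of dividing cells split the libraries in the same order of controls: for 16 S phase genes the medians were -0.27 in MG18 and -0.16 in MG19, against -0.22 in MG15, -0.13 in MG16 and 0.31 in MG17. For 14 genes of G2 and mitosis they were -0.51 and -0.33 in the cKO libraries, against -0.29, 0.01 and 0.33 in the controls, and for 14 progenitor genes -0.35 and -0.50, against -0.22, 0.04 and 0.23. At an unadjusted p under 0.05 in limma, cKO levels were lower for 0 of the 16 S phase genes. They were lower for 5 of the 14 genes of G2 and mitosis and 5 of the 14 progenitor genes (35.7% each, beside 5.17% of all genes). In these lists 0 were higher (beside 6.36% of all genes). By immunostaining, the study reported comparable numbers of Pax6-positive cells at E14 and unaltered numbers of mitotic cells in the cKO. The study also reported more dying cells in the cKO cortex throughout embryonic development, by TUNEL staining. Some of these dying cells carried Pax6 and others did not. In RNA of whole cortex, fewer dividing cells and less repair RNA per cell cannot be told apart. The part of these lists in the lean of the repair genes was not tested.

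**Figure D4:**
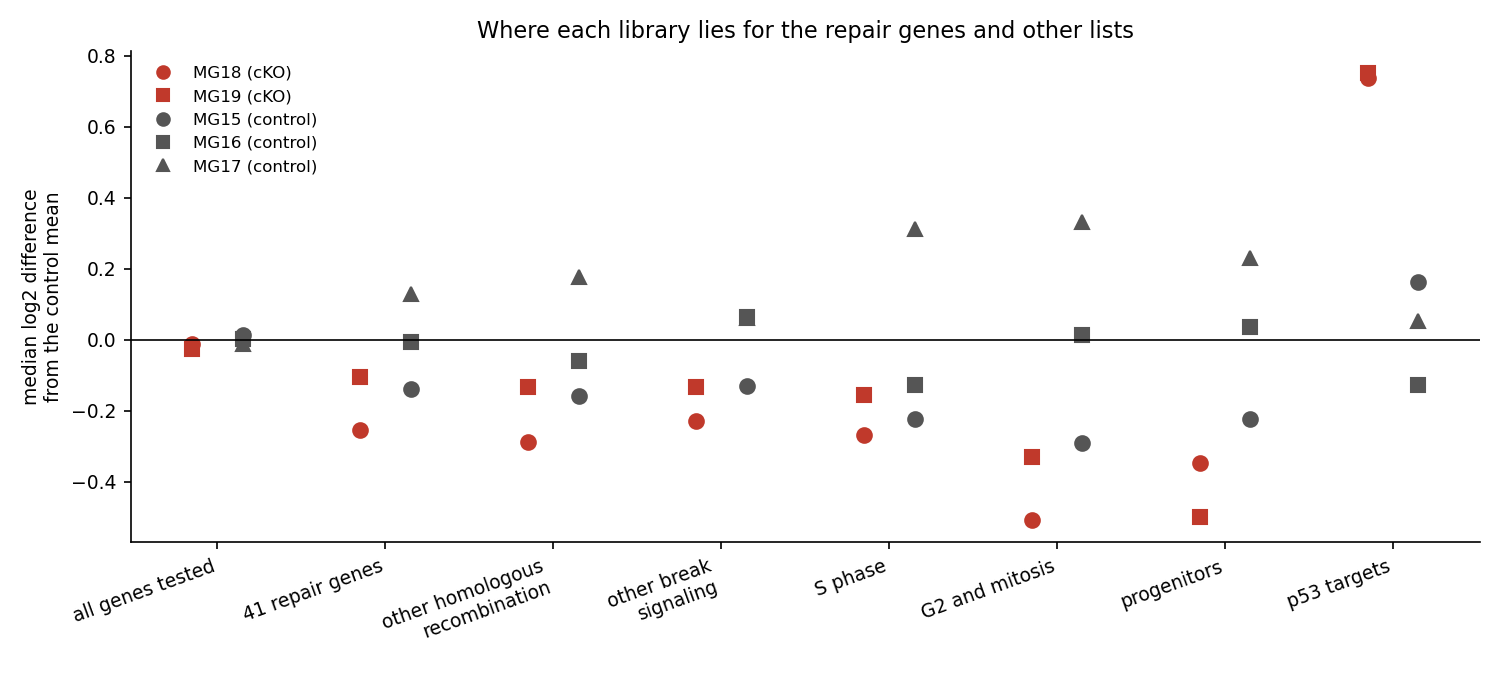
Median log2 difference of each library from the mean of the controls, for all genes tested, for the 41 repair genes and for lists of other genes; cKO libraries are red and left of the grey controls. For the repair genes MG18 is lowest at -0.25 and the control MG17 highest at 0.13, and the S phase list has the same library at the top.

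Cells outside the Emx1 lineage, in which Uhrf1 is not deleted, were represented in all libraries. Summed over 10 ventral telencephalon and interneuron genes, levels were 180 FPKM in MG18 and 105 FPKM in MG19, against 94.1 to 105 FPKM in controls. Sst alone gave 78.2 FPKM in MG18 and 25.5 FPKM in MG19, and the median log2 fold change of the 10 genes was 0.59. At an unadjusted p under 0.05 in limma, 5 of the 10 were higher in the cKO (50%, beside 6.36% of all genes). In the other direction 1 was lower (10%, beside 5.17% of all genes). Over 7 microglia genes the summed level was 35.6 and 35.1 FPKM in the cKO, against 20.6 to 33.8 FPKM in the controls, with 3 higher (42.9%). The log2 fold change was above 0 for 4 of the 7 and below 0 for 3, with a median of 0.49. Tmem119, at -0.62, was below all controls in both cKO libraries. Over 5 endothelial genes the summed level was 90.5 and 82.2 FPKM, against 71.0 to 104 FPKM, with 1 higher (20%). Most of each sum was Cldn5, and the median log2 fold change of the 5 genes was 0.45, with 4 above 0. Over 5 red blood cell genes the summed level, mostly Hbb-bs, was 505 and 442 FPKM, against 582 to 824 FPKM, with 1 gene lower and 1 higher (20% each). The higher one, Hba-a1, had 34.5 FPKM in MG18 but 1.29 FPKM in MG19. In the controls MG15, MG16 and MG17 it had 0.0894, 1.26 and 4.4e-05 FPKM. None of these markers was at exactly 0 in any library, although Hba-a1 in MG17 was near it. The 11 genes of postmitotic neurons had a median log2 fold change of 0.03. The part of these cells in the values of the repair genes was not tested.

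Other genes of the same pathways had differences of similar size. Of 21 further recombination genes 17 were below 0 (81.0%, beside 52.2% of all genes), with a median log2 fold change of -0.23. At an unadjusted p under 0.05 in limma 0 were lower (beside 5.17% of all genes) and 0 higher (beside 6.36%). The most abundant were Shfm1, a small partner of Brca2, at -0.29, and Rpa3, a subunit of the single-strand binding complex RPA, at -0.30. Of 14 further crosslink repair genes 11 were below 0 (78.6%), with a median of -0.09. Stra13, which with Apitd1 forms the histone-fold pair that works with Fancm, was the only one past an unadjusted p of 0.05. It had 14.9 and 10.2 FPKM in the cKO, against 17.6, 17.2 and 22.4 FPKM in the controls, at -0.61 (SE 0.21, unadjusted p = 0.016, adjusted p = 0.306). The most abundant others were Wdr48, the partner of the deubiquitinase Usp1, at -0.24, and Rev3l, the catalytic subunit of polymerase zeta, at 0.01.

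Of 12 further end joining genes tested 10 were below 0 (83.3%, beside 52.2% of all genes), with a median log2 fold change of -0.18 and 0 past an unadjusted p of 0.05. The most abundant were Parp1, which senses strand breaks, at -0.17, and Lig3, a ligase of alternative end joining, at -0.04. Of 21 further break signaling genes 16 were below 0 (76.2%), with a median of -0.21. Brcc3, a deubiquitinase of the Brca1-A complex that trims the ubiquitin chains Rnf8 helps lay down, was the only one past an unadjusted p of 0.05. It had 13.0 and 17.7 FPKM in the cKO, against 20.4, 23.2 and 23.4 FPKM in the controls, at -0.56 (SE 0.18, unadjusted p = 0.013, adjusted p = 0.285 in limma). Kat5, an acetyltransferase that activates Atm, was at -0.04 and Tipin, a replication fork protein that aids Chek1 activation, at -0.28. No gene of these 4 lists passed an adjusted p of 0.05.

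At the output of break signaling, Atm and Atr activate p53, whose target genes respond to DNA damage among other stresses. Of 11 p53 targets, 5 had higher cKO levels at an unadjusted p under 0.05 in limma (45.5%, beside 6.36% of all genes). At that threshold 0 were lower (beside 5.17% of all genes), and the median log2 fold change was 0.72. The list was chosen with earlier results of these data known, so its shares may partly reflect that choice. Phlda3, an inhibitor of Akt, had 8.04 and 7.82 FPKM in MG18 and MG19, against 3.37, 1.85 and 2.68 FPKM in the controls. It was the only gene of the list past an adjusted p of 0.05, at a log2 fold change of 1.60 (adjusted p = 0.0227 in limma, SE 0.27). Its log2 fold change was 1.58 with MG18 left out (adjusted p = 0.352), 1.61 with MG19 left out (adjusted p = 0.333) and 1.63 with MG17 left out (adjusted p = 0.0656), so the size held where the call was lost. With no filter on low values the adjusted p was 0.0631 and without the trend 0.0677, at the same log2 fold change of 1.60. The others at an unadjusted p under 0.05 were Cdkn1a, the cell cycle inhibitor p21, at 1.64, Sesn2, a stress-induced regulator of metabolism, at 1.47, Eda2r, a receptor of the TNF receptor family, at 1.30, and Bbc3, the apoptosis activator Puma, at 0.72. Cdkn1a rested mainly on MG18 (4.32 FPKM, with 1.18 FPKM in MG19, against 0.422 to 1.05 FPKM in the controls), and its log2 fold change was 0.75 without that library. Mdm2 and Bax, also targets of p53, had log2 fold changes of -0.08 and -0.17.

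**Figure D5:**
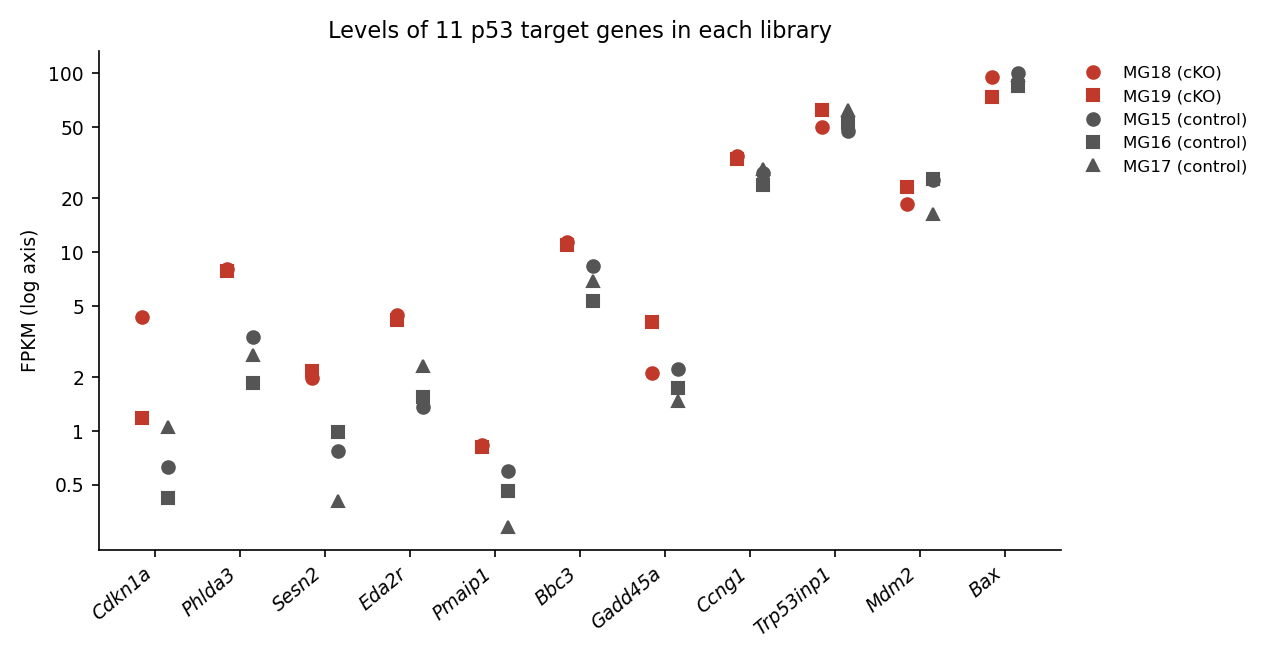
FPKM of 11 p53 target genes in each library on a log axis, with cKO libraries left of controls for each gene. For 7 of the 11 genes (63.6%, beside 14.5% of all genes) both cKO points are above every control, and Mdm2 and Bax overlap with the controls. The genes were chosen with earlier results of these data known.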

How the data were processed

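RNA of cortex was made into 5 libraries with a strand-specific kit after ribosomal depletion and sequenced with paired reads of 100 bases. Per the labels and the study's methods, the authors mapped reads with TopHat2 to mm10, removed duplicated, multi-mapped, low-quality and improperly paired reads, and deposited FPKM values per gene from Cuffdiff. For the tool versions and the strand setting of the FPKM step the sources used here give nothing.

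Groups came from the genotype labels. Names of small RNAs (1230 in the table, 54.6% to 87.4% of summed FPKM) and genes under a mean of 0.1 FPKM were left out. limma 3.58.1 (R 4.3.3, empirical Bayes with a trend) compared 2 cKO with 3 control libraries on log2(FPKM + 0.1), as the deposited table holds no counts. An exact permutation test of 2 against 3 libraries cannot go below p = 0.1 (two-sided). The fit was tested on simulated data. The members, gene lists and tests were chosen with earlier results of these data known. Full values are given for members with an unadjusted p under 0.05 and, in each role group, for the highest mean and the largest difference in each direction. Others are given by range, with some values added afterwards (Rad51c, Xrcc3, Atr and Trp53bp1). Further pathway genes are named where the unadjusted p is under 0.05, or otherwise the 2 with the highest mean. Exon overlaps came from GENCODE M21. Alternatives changed the pseudocount, the filter, the scaling, the trend and a length correction, and left out each library. Depth was estimated from values of genes with transcripts of at least 2500 bases. Between 62.8% and 80.7% of their low values came within 0.25 of a whole fragment, where chance gives 50%, so whole reads were not recovered and no count test was run. Faap24, Faap100 and Paxx were not found by name, and Dntt and Parp3 were below the filter.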

Additional observations from a re-analysis of the deposited data

How the results depend on the processing

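No repair gene passed an adjusted p of 0.05 in limma under any of the settings tried, whose lowest adjusted p values ran from 0.257 to 0.526. The number lower at an unadjusted p under 0.05 was 3 in the reported fit, 1 with equal summed FPKM, 5 with a correction for transcript length, and 1 to 7 when 1 library was left out. The number higher was 0 in the reported fit, 1 with equal summed FPKM (Mdc1), 1 without the trend (Mdc1), and 0 to 1 when 1 library was left out. The number also past 2-fold was 1 in the reported fit, 0 with a pseudocount of 1, and 0 to 1 when 1 library was left out, with 0 without MG18 or without MG17. The median log2 fold change was -0.19 in the reported fit, -0.0033 with equal summed FPKM, and -0.25 to -0.10 when 1 library was left out. Equal summed FPKM shifts the median of all genes by 0.18, and the share of all genes below 0 is 29.6% there, against 52.2% in the reported fit. Relative to the median of all genes, the members' median was -0.17 in both. Over all genes, those past both thresholds numbered 171 lower and 421 higher in the reported fit and ran from 24 to 313 lower and from 152 to 591 higher over all settings, with 24 and 152 for a pseudocount of 1. No paired analysis was possible because the labels do not say which libraries share a litter or form a pair. The replicate numbers used here, given in the order of listing, only name the libraries. With about 8000000 to 44000000 fragments in each of the 5 libraries, the SE of the members ran from 0.15 to 0.47. Differences inside the 95% interval of a gene could not be told apart from its estimate.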
